A study of Danio rerio with 20 samples.

Results

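The skin of unexercised 3-year zebrafish was set against the skin of unexercised 1-year zebrafish (Danio rerio), to ask which transcripts differ with age in fish that did not swim for training. The comparison takes 10 of the 20 RNA-seq libraries of the study, chosen by the labels alone: every skin sample whose perturbation is given as none. They are 5 libraries of 3-year fish and 5 of 1-year fish. All come from male fish of the strain labelled AB JxTu, and no allele, drug or diet is named for either age. The other 10 libraries, 5 from exercised 3-year fish and 5 from exercised 1-year fish of the same strain and sex, enter here for the estimate of spread and for 1 test of the difference. The labels give age in whole years, and neither the hour of sampling nor the body site of the skin is given in the sources used here. Nothing ties a 3-year sample to a 1-year sample, so the samples were treated as unpaired. The p-values weigh each difference against the spread between samples of a group, estimated over all 20 libraries together.

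Zebrafish skin is a living, mucus-covered epidermis over a dermis that carries collagen layers, pigment cells, vessels, nerves and bony scales. Fish keep a circadian clock in every tissue: Clock and Bmal proteins switch on Period, Cryptochrome and Nr1d genes, whose products then switch the activators off again. Many zebrafish clock genes also answer directly to light. Ageing tissues of other vertebrates are known for changes in matrix, mitochondria, immune cells and daily rhythm. In bulk skin, fewer cells of a type and less RNA per cell cannot be told apart.

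Total counts ran from 36616292 to 50756160 in the 3-year libraries and from 31272180 to 43187976 in the 1-year libraries. Levels are given in CPM, where each count is divided by its library's TMM-adjusted size. They are not comparable between genes of unequal length. The keratin transcript krt5 stood at 36391 to 46679 CPM in 3-year skin and at 42528 to 53235 CPM in 1-year skin, and was abundant in all 10 libraries. A pair of libraries needs care. The count column of unexercised 1-year replicate 1 is named for muscle while its sample label says skin. Its level of ckma, the muscle creatine kinase, was 1249 CPM, inside the 692 to 1947 CPM of the other 1-year libraries, and its krt5 was 42812 CPM. Unexercised 3-year replicate 1 had a first principal component score of -26.8, among the 1-year scores of -45.1 to -25.1, whereas 3-year replicates 2 to 5 scored 41.0 to 59.5. That component held 23.2% of the variance among the 10 libraries.

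**Figure D1:**
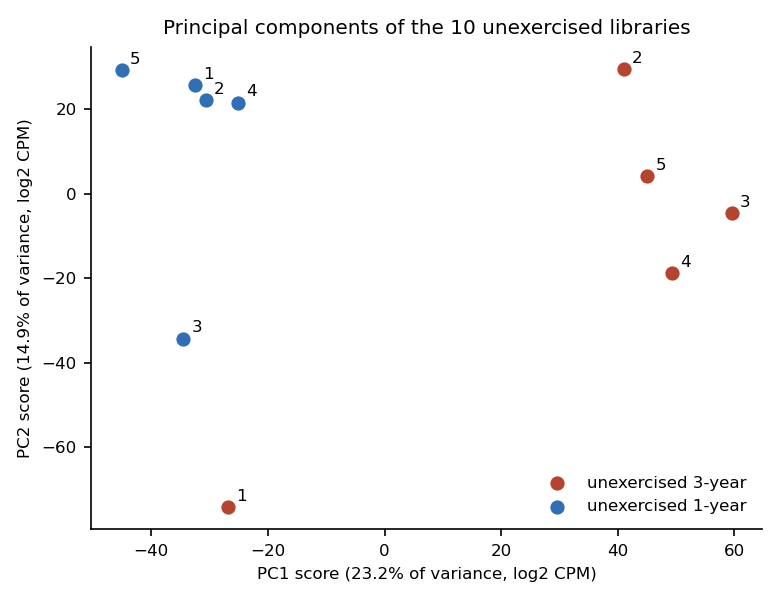
Scores of the 10 unexercised libraries on the first and second principal components of log2 CPM (horizontal and vertical axes, with the share of variance). Points are libraries and numbers are replicates. The 3-year replicates 2 to 5 lie at 41.0 to 59.5 on the first axis, while 3-year replicate 1 lies at -26.8 beside the 1-year libraries and at -74.2 on the second axis.

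Of 20788 genes tested, 201 were called at an adjusted p below 0.05 (edgeR quasi-likelihood test, Benjamini-Hochberg over all genes), which is 0.967% of them. In 3-year skin 103 genes rose (0.495%) and 98 fell (0.471%), 96 of the 201 by more than 2-fold. The median log2 fold change over all genes was 0.02. At an unadjusted p below 0.05 there were 1831 genes higher (8.81%) and 1742 lower (8.38%). The 3-year and 1-year values did not overlap at all in 1057 genes (5.08%), of which 536 were higher (2.58%) and 521 lower (2.51%) in 3-year skin. They included 170 of the called ones. The count depended on single libraries. It was 393 without 3-year replicate 1, 67 without 1-year replicate 1, and 205 without both, of which 100 were among the 201. Across all 20 fits that left out a library it ran from 43 to 393, and 33 genes were called in every one of them. Of the 66 called genes named here, 16 were called in every one of those fits: NR1D1, PER1 (ENSDARG00000012499), cipcb, CRY2, cry3b, dbpa, dbpb, si:ch211-132b12.7, zgc:194659, si:ch211-208f21.3, cfp, ms4a17a.7, COX4I2, WIF1, jcada and ENSDARG00000104886. Each of the other 50 lost its call in at least 1 fit. Those still called numbered 56, 30, 28, 33 and 25 of the 66 without 3-year replicates 1 to 5, and 29, 22, 60, 42 and 22 without 1-year replicates 1 to 5. They numbered 39 without both replicates numbered 1 and 57 to 66 without an exercised library. A fit of the unexercised libraries alone lost 29 of the 66. DESeq2 called 842 genes (4.05%) and limma voom 929 (4.47%).

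The circadian clock held the densest group of calls. In all, 5 lists of clock genes had 45 measured members, of which 12 passed the test, 4 higher and 8 lower in 3-year skin. That is 26.7% of them, against 0.967% of all genes. Over all 60 lists, 34 of 2208 measured members were called (1.54%), these 12 among them, and 34 lists held no call. Where another list held 1 call, it is given for the gene and not as a result about the list. The lists were drawn up with earlier results of these data known, which already showed clock genes among the calls, so the share is a description. All 12 differed in the same direction in exercised fish. They are given by role below, activators first.

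Among the activators, the genes whose products switch on the loop, bmal2 rose. Its level was 17.1, 9.97, 14.2, 11.1 and 15.9 CPM in the 3-year libraries, against 5.99, 5.93, 8.20, 8.87 and 7.28 CPM in the 1-year libraries, and the groups did not overlap. The log2 fold change was 0.91 (SE 0.18, adjusted p 0.0283, or 0.0745 without 1-year replicate 1). It was the only called one of 6 activators, whose median was 0.61. The BMAL1 paralog ENSDARG00000035732 stood at 0.97 (adjusted p 0.0944) and npas2 at -0.29 (adjusted p 0.457).

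The nuclear receptors of the loop include the Nr1d proteins, which repress Bmal genes, and the Ror proteins, which activate them. NR1D1 fell furthest of the called clock genes. It measured 6.77, 14.7, 22.7, 18.5 and 10.8 CPM in 3-year skin, against 56.1, 75.6, 126, 146 and 36.1 CPM in 1-year skin. Every 3-year library was below every 1-year library, though the 1-year libraries themselves spread widely. The log2 fold change was -2.58 (SE 0.37, adjusted p 0.00297), and the call was kept in all 20 fits that left out a library. On the other side rorcb rose, with 56.3, 31.5, 30.7, 44.1 and 59.5 CPM in 3-year skin, against 8.15, 8.68, 14.3, 28.0 and 15.0 CPM in 1-year skin. Its groups did not overlap either, but the call was less steady: it differed by 1.58 on the log2 scale (SE 0.37) with an adjusted p of 0.0444, which became 0.055 without 3-year replicate 1 and 0.114 without 1-year replicate 1. These were the 2 calls among 11 receptors, whose median was 0.00.

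Period proteins, with Cipc and Ciart, hold the activators back. All 8 measured genes of this list were lower in 3-year skin, with a median log2 fold change of -1.02, and 3 fell past the threshold. The called period gene was PER1 (ENSDARG00000012499), at 33.1, 44.3, 31.8, 48.0 and 39.4 CPM in 3-year skin, against 78.2, 91.9, 119, 101 and 90.3 CPM in 1-year skin. The highest 3-year fish was well below the lowest 1-year fish, and the log2 fold change was -1.29 (SE 0.17, adjusted p 0.00115). cipcb, which encodes a Clock-interacting repressor, had 18.9, 30.0, 22.1, 27.5 and 23.8 CPM in 3-year skin, against 44.1, 44.1, 54.9, 59.0 and 60.4 CPM in 1-year skin. Its log2 fold change was -1.10 (SE 0.14, adjusted p 0.000997), with no overlap. ciartb fell by 1.35 on the log2 scale (SE 0.26, adjusted p 0.0242). PER2, PER3, ciarta, cipca and the second PER1 paralog (ENSDARG00000056885) did not pass, with log2 fold changes between -2.03 and -0.24. In that PER1 paralog the 1-year fish were split, since replicates 1 and 2 had 8.48 and 8.68 CPM and replicates 3 to 5 had 28.5 to 49.2 CPM, while the 3-year fish had 3.61 to 11.2 CPM. The same order was seen in other clock genes. Replicates 1 and 2 had 13.9 and 13.5 CPM, against 22.7 to 24.2 CPM, in BMAL1 (ENSDARG00000006791). In CRY1 (ENSDARG00000011583) they had 14.3 and 17.9 CPM, against 34.4 to 49.9 CPM. Among the called clock genes, bmal2, rorcb, cry3a, CRY2, cipcb, ciartb and dbpb showed it. NR1D1, PER1 (ENSDARG00000012499), cry3b, tefa and the uncalled PER3 did not, and in dbpa these libraries were highest. The cause was not tested.

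Cryptochromes, a family that includes repressors of Clock and Bmal, moved in both directions. CRY2 fell. It had 16.8, 20.0, 14.2, 17.7 and 15.8 CPM in 3-year skin, against 30.2, 34.9, 39.7, 43.6 and 38.6 CPM in 1-year skin. The spread within each age was small beside the gap, and the log2 fold change was -1.14 (SE 0.14, adjusted p 0.000901). cry3b rose, with 57.8, 63.7, 65.2, 57.7 and 88.0 CPM in 3-year skin, against 25.6, 20.3, 23.5, 16.5 and 35.0 CPM in 1-year skin. Its log2 fold change was 1.46 (SE 0.21, adjusted p 0.00261). Its paralog cry3a rose by 0.63 (SE 0.11, adjusted p 0.014). Protein activity was not measured, so no role is assigned to the single paralogs here. The other 5 members, among them the light-induced photolyase relatives cry5 and cry-dash, were not called, and cry-dash stood at -0.45 (adjusted p 0.168).

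The PAR bZIP factors carry the rhythm to output genes. Of the 12 measured genes in their list, which also holds bHLH genes, 3 fell past the threshold. dbpb had 9.01, 15.5, 8.14, 12.2 and 7.81 CPM in 3-year skin, against 18.8, 21.7, 35.2, 33.0 and 28.0 CPM in 1-year skin (log2 fold change -1.38, SE 0.21, adjusted p 0.0041). dbpa fell by 1.41 (SE 0.24, adjusted p 0.00956) and tefa by 0.74 (SE 0.15, adjusted p 0.0285). The groups did not overlap in any of these, but the tefa call was lost without 1-year replicate 1 (adjusted p 0.0506). The repressor gene nfil3-5, which opposes the PAR factors, stood at 1.33 (adjusted p 0.0777), and BHLHE41 at -1.23 (adjusted p 0.0966). Whether the fish of both ages were sampled at the same hour is not given, so age and hour cannot be told apart for this group.

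**Figure D2:**
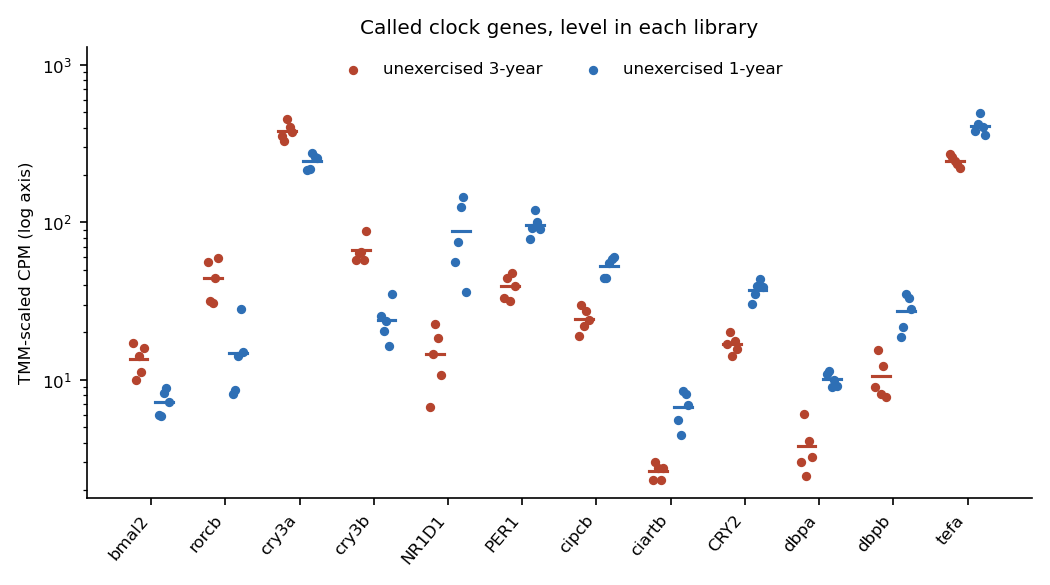
Level of the 12 called clock genes in each unexercised library, in TMM-scaled CPM on a log axis; points are libraries (5 per age), horizontal lines are means, and 3-year libraries are left of 1-year libraries. PER1 is ENSDARG00000012499. No 3-year point overlaps the 1-year points of its gene: bmal2, rorcb, cry3a and cry3b are higher and the other 8 lower in 3-year skin.

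Outside the lists, the lowest adjusted p of all genes belonged to si:ch211-132b12.7 (ENSDARG00000068374), a gene without a descriptive name. It had 13.7, 17.6, 9.21, 14.7 and 12.4 CPM in 3-year skin, against 47.4, 61.8, 50.1, 61.9 and 39.3 CPM in 1-year skin. The groups were far apart and each was tight, and it fell by 1.95 on the log2 scale (SE 0.20, adjusted p 0.000132). In exercised fish it was -2.29 (adjusted p 1.19e-05). The steepest rise among genes with a symbol and at least 5 CPM was zgc:194659, at 28.1, 78.3, 49.3, 83.6 and 85.6 CPM in 3-year skin, against 7.39, 12.8, 16.5, 14.8 and 10.4 CPM in 1-year skin. Its log2 fold change was 2.39 (SE 0.32, adjusted p 0.00115), with 3-year replicate 1 the lowest of its group and still above all 1-year fish. In exercised fish it was 0.80 (adjusted p 0.0767), and the difference between these effects had an unadjusted p of 0.00153 and an adjusted p of 0.12.

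A few other genes complete the extremes. si:ch211-208f21.3 rose by 1.51 (SE 0.24, adjusted p 0.0076) and had the same log2 fold change of 1.51 in exercised fish. urgcp, si:dkey-21e2.10, zgc:152948, C18H3orf33 and CPLX2, which encodes the exocytosis regulator complexin, rose by 1.23 to 1.36 with adjusted p of 0.0294 to 0.0422. None of those 5 was called without 1-year replicate 1, where the adjusted p were 0.0733 to 0.104. On the lower side, si:dkey-18a10.3 fell by 2.27 (SE 0.43, adjusted p 0.0215), with 1.02 to 2.59 CPM in 3-year skin, against 4.31 to 14.5 CPM in 1-year skin.

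The most extreme fold change in that set followed a pattern of presence and absence. si:ch211-114l13.11 was at 0.0384, 0.0249, 0.0783, 0.147 and 0.0182 CPM in 3-year skin, against 8.10, 8.80, 0.0519, 6.73 and 7.52 CPM in 1-year skin. All 3-year fish and 1-year replicate 3 were close to 0. The fitted log2 fold change was -6.66 (SE 1.22, adjusted p 0.0155), but limma voom gave an adjusted p of 0.296. In exercised fish of 3 years, 4 libraries had 9.79 to 17.6 CPM and replicate 2 had 0.0243 CPM. The level therefore did not follow age across the study.

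Nuclear genes for mitochondrial proteins were lower in 3-year skin, by small amounts. The list of oxidative phosphorylation subunits had 100 measured members, of which 94 had a negative log2 fold change and 40 were lower at an unadjusted p below 0.05, against 8.38% of all genes. Only CYC1 fell and COX4I2 rose past the adjusted threshold, and the median was -0.27, against 0.02 over all genes. limma voom called 8 members lower and 1 higher, and DESeq2 12 lower and 1 higher. CYC1, the cytochrome c1 subunit of complex III, had 99.2, 131, 119, 124 and 122 CPM in 3-year skin, against 165, 153, 144, 160.5 and 209.8 CPM in 1-year skin (log2 fold change -0.48, SE 0.11, adjusted p 0.0443). The groups did not overlap, but the adjusted p was 0.0598 without 3-year replicate 1 and 0.0906 without 1-year replicate 1. COX4I2, an alternative subunit of complex IV linked to low oxygen in mammals, went the other way, with 14.2, 16.4, 18.6, 18.9 and 16.04 CPM in 3-year skin, against 7.77, 7.84, 9.66, 7.96 and 10.5 CPM in 1-year skin. It rose by 0.94 on the log2 scale (SE 0.15, adjusted p 0.00618) and was called in all 20 fits that left out a library.

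Mitochondrial ribosomal proteins showed the same sign. Of 73 measured, 64 had a negative log2 fold change and 23 were lower at an unadjusted p below 0.05, against 8.38% of all genes. Past the adjusted threshold 2 fell, against 0.471% of all genes, and the median was -0.22. MRPL12 had 15.8, 14.8, 16.7, 19.6 and 22.5 CPM in 3-year skin, against 34.5, 31.2, 22.4, 22.3 and 32.5 CPM in 1-year skin. Its groups overlapped, since 3-year replicate 5 at 22.5 CPM lay just above the 1-year fish at 22.4 and 22.3 CPM (log2 fold change -0.68, SE 0.15, adjusted p 0.0412). MRPL28 fell by 0.46 (SE 0.10, adjusted p 0.0387). DNM1L, the GTPase that divides mitochondria, was the 1 call of 40 genes of mitochondrial biogenesis and dynamics, against 0.967% of all genes. It fell by 0.52 (SE 0.10, adjusted p 0.0283). In the same list PHB2 (ENSDARG00000017728), CLPP and IMMT stood at -0.67, -0.50 and -0.30 (adjusted p 0.0683, 0.0701 and 0.117). limma voom called that PHB2 paralog and CLPP (adjusted p 0.0231 and 0.0349). DESeq2 called these and IMMT (0.0102, 0.0133 and 0.0214). NRF1 and SIRT3 were positive, at 0.27 and 0.67 (adjusted p 0.234 and 0.245). In exercised fish DNM1L stood at -0.04 (adjusted p 0.844). The difference between the DNM1L effects had an unadjusted p of 0.00387 and an adjusted p of 0.162. Other members were mixed. IMMT stood at -0.30 without and -0.03 with exercise, and pprc1 at -0.82 and 0.33. MFN2 stood at -0.38 and -0.69 and SIRT4 at -0.36 and -0.49, both called in exercised fish. Exercised values of the other mitochondrial lists are not given here. The 13 genes encoded on the mitochondrial genome gave a median of -0.02 with none called, and none at an unadjusted p below 0.05. DESeq2 and limma voom called none of them either. Cytosolic ribosomal proteins had a median of 0.10, with 81 of 86 positive and none called. At an unadjusted p below 0.05, 5 were higher and 1 lower, against 8.81% and 8.38% of all genes.

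Further called genes that act in mitochondria were picked out after their values were seen, and all those named here fell. They were the protein import genes TOMM40, TIMM50, SAMM50 and CHCHD4, with log2 fold changes from -0.90 to -0.51. The mitochondrial translation factors GFM1 and TSFM stood at -0.72 and -1.01, and the mitochondrial isoleucine tRNA synthetase IARS2 at -0.54. PDSS2 and COQ10B, of coenzyme Q synthesis and function, stood at -1.08 and -0.76. The carrier SLC25A12 and the transport GTPase RHOT1 (ENSDARG00000099996) stood at -0.66 and -0.54. IARS2 had 28.0, 28.4, 28.4, 28.1 and 27.0 CPM in 3-year skin, against 43.6, 47.5, 35.7, 34.5 and 41.8 CPM in 1-year skin. Its groups did not overlap, and the 3-year fish lay close together. The adjusted p of these 11 genes lay between 0.0141 and 0.0424. Without 1-year replicate 1 only PDSS2 was still called, with an adjusted p of 0.0423, and the other 10 had 0.0602 to 0.0906. Without 3-year replicate 1, COQ10B and TSFM had 0.0522 and 0.0531 and the other 9 were called. Muscle was measured beside them through the fast muscle list, which does not stand for slow muscle. The score of that list, its mean log2 CPM, was 4.46 to 5.79 in 3-year skin and 4.92 to 6.23 in 1-year skin. Its 42 members had a median log2 fold change of -0.50 with none called. With that score as a covariate 279 genes were called in all, among them 178 of the 201 and 61 of the 66 named. All 11 genes of this group were still called (adjusted p 0.0245 to 0.0479), as were CYC1, COX4I2, MRPL28 and DNM1L, while MRPL12 had 0.0527. With the score of hepatocyte genes as the covariate, PDSS2 and IARS2 were still called and the other 9 of the 11 had 0.0508 to 0.0715.

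**Figure D3:**
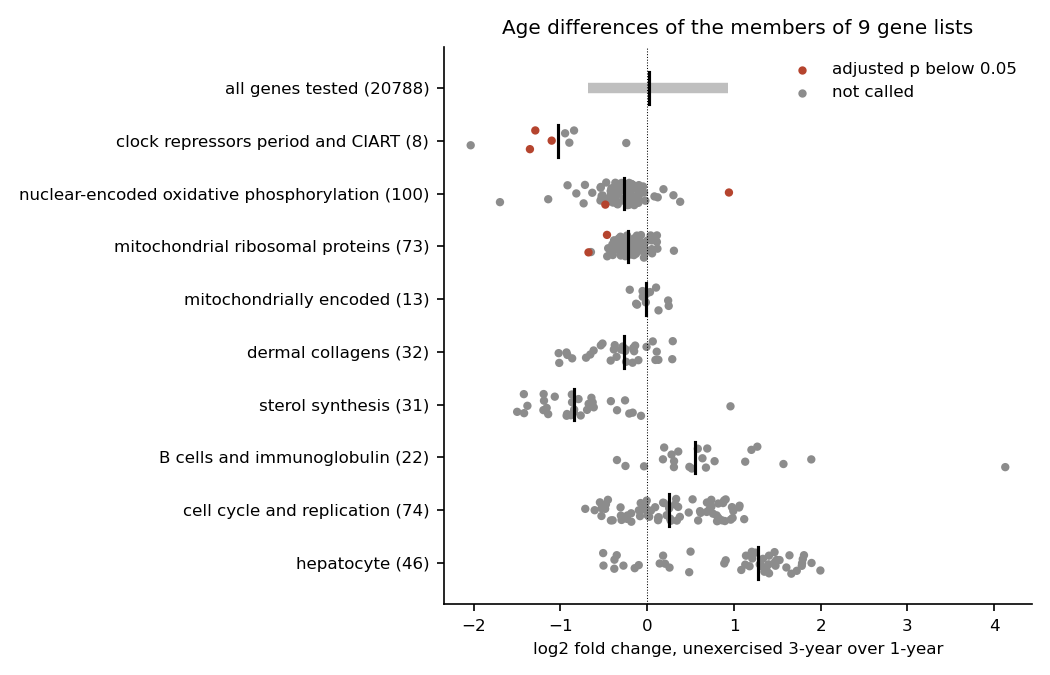
Log2 fold change of each measured member of 9 gene lists, unexercised 3-year over 1-year skin (horizontal axis), with the number of members in brackets. Points are genes, red where the adjusted p was below 0.05; vertical bars are medians, and the grey band spans the middle 90% of all genes tested. The medians run from -1.02 for period and CIART genes to 1.27 for hepatocyte genes, and most members are not called.

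In energy metabolism, calcium transport and the proteasome, single genes of several lists fell, where 0.471% of all genes were called lower. DGAT2, which makes the last bond of triglyceride, had 4.28, 5.51, 2.27, 2.15 and 2.85 CPM in 3-year skin, against 13.9, 14.0, 17.3, 7.72 and 11.9 CPM in 1-year skin. All 3-year fish were below all 1-year fish, and the log2 fold change was -1.93 (SE 0.38, adjusted p 0.027, or 0.0562 without 1-year replicate 1). It was the 1 call of 49 genes of fatty acid and triglyceride synthesis. ACADSB (ENSDARG00000098174), an acyl-CoA dehydrogenase, fell by 1.26 (SE 0.26, adjusted p 0.0303) as the 1 call of 48 genes of fatty acid oxidation, and HK1, the hexokinase that opens glycolysis, by 0.48 (SE 0.10, adjusted p 0.0345). ATP2A2, the calcium pump of the endoplasmic reticulum, fell by 0.80 (SE 0.19, adjusted p 0.0447), and the proteasome subunit PSMD11 (ENSDARG00000005134) by 0.60 (SE 0.13, adjusted p 0.0383). None of DGAT2, ACADSB, HK1, ATP2A2 and PSMD11 was called without 1-year replicate 1.

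Sterol synthesis genes were spread too widely to be called. Of 31 measured, 30 had a negative log2 fold change and 5 were lower at an unadjusted p below 0.05, against 8.38% of all genes. Each of edgeR, DESeq2 and limma voom called none. The median of -0.85 ran from -1.25 without 3-year replicate 1 to -0.40 without 1-year replicate 5. HMGCS1, which makes the precursor of mevalonate, had 1230, 289, 298, 233 and 496 CPM in 3-year skin, against 1061, 177, 563, 1838 and 2987 CPM in 1-year skin. The ages overlapped fully in it, and 1-year fish differed among themselves more than the ages did.

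Among genes of growth signals and repair, single members were called, where 0.967% of all genes were. WIF1, a secreted inhibitor of Wnt ligands, had 25.6, 41.4, 30.9, 43.7 and 33.9 CPM in 3-year skin, against 14.3, 17.9, 17.4, 19.9 and 18.4 CPM in 1-year skin (log2 fold change 1.00, SE 0.17, adjusted p 0.00956). The groups were separate, the call was kept in all 20 fits that left out a library, and it was the 1 call of 67 genes of Wnt, Notch and Hedgehog signalling. eif4ebp3, a brake on cap-dependent translation downstream of mTOR, rose by 1.02 (SE 0.20, adjusted p 0.027). ogg1, the glycosylase that removes oxidised guanine from DNA, had 4.03, 4.73, 5.69, 5.38 and 3.67 CPM in 3-year skin, against 2.14, 1.36, 2.41, 3.43 and 1.85 CPM in 1-year skin (log2 fold change 1.07, SE 0.21, adjusted p 0.0283). It was the 1 call of 54 DNA repair genes, whose median was 0.00. ATG4C, a protease of autophagosome formation, rose by 0.81 (SE 0.16, adjusted p 0.0283), and HSF2, a heat shock factor, fell by 0.77 (SE 0.14, adjusted p 0.0182). Without 1-year replicate 1, WIF1 and HSF2 were still called, and eif4ebp3, ogg1 and ATG4C had adjusted p of 0.0602 to 0.0728.

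Cell cycle genes were not called. Of 74 measured, 49 were positive and 18 were higher at an unadjusted p below 0.05, against 8.81% of all genes. The median was 0.25, and edgeR, DESeq2 and limma voom each called none. The score of the list was 2.92 to 4.03 in 3-year skin and 2.96 to 3.36 in 1-year skin. The highest score, 4.03, was 3-year replicate 3, and without that library the median was 0.08. The list of p53, apoptosis and senescence genes had 57 members, a median of 0.10 and none called by edgeR. At an unadjusted p below 0.05, 6 were higher and 2 lower, against 8.81% and 8.38% of all genes. DESeq2 called none of the 57 and limma voom 1.

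Single genes of the immune system rose in 3-year skin. cfp, which encodes properdin, the stabiliser of the alternative complement pathway, had the second lowest adjusted p of all genes. It measured 21.6, 16.8, 12.9, 21.2 and 27.6 CPM in 3-year skin, against 5.44, 5.50, 7.04, 7.23 and 6.93 CPM in 1-year skin. The lowest 3-year fish was well above the highest 1-year fish, and the log2 fold change was 1.64 (SE 0.19, adjusted p 0.000725). It was 1.30 in exercised fish (adjusted p 0.000804). ms4a17a.7 belongs to a family of membrane proteins, some of which mark leukocytes in mammals, and its own cell type was not tested. It rose by 1.58 (SE 0.28, adjusted p 0.0121), though 3-year replicate 2 with 6.68 CPM lay below 1-year replicate 1 with 7.37 CPM. CXCR3, a chemokine receptor of T cells in mammals, had 5.01, 9.79, 8.01, 5.92 and 8.37 CPM in 3-year skin, against 3.22, 3.40, 2.62, 4.69 and 1.66 CPM in 1-year skin (log2 fold change 1.25, SE 0.30, adjusted p 0.0489, or 0.105 without 1-year replicate 1).

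The immune cell lists themselves held no call. Of 22 B cell and immunoglobulin genes, 19 were positive and 8 were higher at an unadjusted p below 0.05, with a median of 0.55. DESeq2 called 1 and limma voom none. Those 8 were low, with means of 0.339 to 3.80 CPM in 3-year skin. The more abundant ighm had means of 25.4 CPM in 3-year and 20.9 CPM in 1-year skin (adjusted p 0.867). The score of this list was 1.17 to 2.02 in 3-year skin and 0.59 to 1.30 in 1-year skin, with 3-year replicates 3 and 5 highest. Of 40 T cell and NK-like genes 30 were positive and 7 were higher at an unadjusted p below 0.05 (median 0.34), and DESeq2 called 3 and limma voom 4. The medians were 0.20 over 36 macrophage and dendritic cell genes, 0.40 over 23 neutrophil genes, 0.23 over 58 interferon response genes and 0.24 over 56 inflammatory mediators. At an unadjusted p below 0.05 these 4 lists had 2, 3, 5 and 8 members higher and at most 1 lower, where 8.81% of all genes were higher. The macrophage and interferon counts are below that share. limma voom called 2 inflammatory mediators higher and 1 interferon gene lower, DESeq2 called 1 inflammatory mediator, and neither called a macrophage or neutrophil gene. A single fish stood out in mhc1uba, an MHC class I gene, which had 98.6, 41.0, 50.7, 4320 and 33.0 CPM in 3-year skin, against 39.3, 47.6, 123, 51.7 and 34.3 CPM in 1-year skin. It was not called (adjusted p 0.0884).

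The vessel marker plvapb, of the diaphragms of endothelial pores, had 46.3, 103, 77.8, 59.0 and 58.7 CPM in 3-year skin, against 43.1, 34.8, 38.2, 34.6 and 37.1 CPM in 1-year skin. All 3-year fish were above all 1-year fish, replicate 1 by little, and the log2 fold change was 0.88 (SE 0.18, adjusted p 0.0283, or 0.0068 without 3-year replicate 1). It was the 1 call of 34 endothelial and lymphatic genes, against 0.967% of all genes. Of the 34, 28 were positive, with a median of 0.25. The negative ones were the endothelial genes SOX7, KDR, SOX17, kdrl, tek and cdh5, with log2 fold changes from -0.25 to -0.06. Chosen after their values were seen, jcada, of endothelial junctions, rose by 0.89 (SE 0.16, adjusted p 0.0121) and the endothelial protocadherin PCDH12 by 0.90 (SE 0.21, adjusted p 0.0439). The PCDH12 groups overlapped at 3-year replicate 4, and the jcada groups did not. RHAG, the Rh glycoprotein of red cell membranes, also chosen after its values were seen, rose by 0.96 (SE 0.20, adjusted p 0.0283). The erythrocyte list of 16 genes had a median of 0.19 and no call. In it 1 gene was lower at an unadjusted p below 0.05, against 8.38% of all genes.

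In the dermis, fibrillar collagens were lower in 3-year skin without passing the test. None of 32 dermal collagens was called by edgeR. Of them 26 were negative and 8 were lower at an unadjusted p below 0.05, against 8.38% of all genes. The median was -0.27, limma voom called 4 and DESeq2 2. col1a1a, a chain of type I collagen, had 1382, 913, 904, 572 and 687 CPM in 3-year skin, against 2033, 1953, 1143, 1954 and 1919 CPM in 1-year skin. 3-year replicate 1 and 1-year replicate 3 were the fish that overlapped. The log2 fold change was -1.01 (SE 0.31, adjusted p 0.114, or 0.053 without 3-year replicate 1). COL1A1 and COL1A2 stood at -1.02 and -0.92 (adjusted p 0.137 and 0.162).

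A further 3 matrix genes passed. scpp7, of the secretory calcium-binding phosphoproteins of mineralised tissue, fell as the 1 call of 29 scale osteoblast and mineralisation genes, against 0.967% of all genes. It had 35.4, 17.6, 24.6, 12.8 and 15.4 CPM in 3-year skin, against 111, 111, 26.8, 59.9 and 79.4 CPM in 1-year skin. Only 1-year replicate 3 reached down into the 3-year range, and the log2 fold change was -1.87 (SE 0.34, adjusted p 0.0157). CCN4, a matricellular protein of the Wnt response, fell by 1.52 (SE 0.32, adjusted p 0.0336, or 0.0665 without 1-year replicate 1). EFEMP2 (ENSDARG00000020811), a fibulin of elastic fibres, rose by 0.79 (SE 0.19, adjusted p 0.0461), and 3-year replicate 1 with 10.5 CPM was apart from the 22.6 to 26.3 CPM of the other 3-year fish. The 1-year fish had 10.9 to 14.1 CPM. Without 3-year replicate 1 the adjusted p of EFEMP2 was 0.000415, and without 1-year replicate 1 it was 0.0942. VIM (ENSDARG00000010008), the intermediate filament of mesenchymal cells, was chosen after its values were seen. It showed the same library apart, with 29.8, 79.0, 60.2, 48.0 and 96.1 CPM in 3-year skin, against 27.9, 27.2, 23.8, 31.5 and 28.8 CPM in 1-year skin (log2 fold change 1.17, SE 0.24, adjusted p 0.0283).

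In the epidermis AGR2 and upk1a fell. None of 18 basal keratinocyte genes, 22 superficial keratinocyte and keratin genes, 20 desmosome genes or 30 claudin and tight junction genes passed, with medians of -0.11, 0.02, -0.32 and 0.13. At an unadjusted p below 0.05 those lists had 0, 4, 5 and 6 members, against 17.2% of all genes. limma voom called 1 keratin gene and 1 desmosome gene, and DESeq2 1 desmosome gene. AGR2, a disulfide isomerase needed for mucin production, was the 1 call of 12 mucous and club cell genes. It had 100.1, 113, 159, 142 and 125 CPM in 3-year skin, against 208, 337, 236, 249 and 433 CPM in 1-year skin. The groups did not overlap, and it fell by 1.19 on the log2 scale (SE 0.28, adjusted p 0.0432), with an adjusted p of 0.0571 without 3-year replicate 1 and 0.0618 without 1-year replicate 1. upk1a, a uroplakin, chosen after its values were seen, fell by 0.83 (SE 0.16, adjusted p 0.0242). AKR1B1 (ENSDARG00000006215), an aldose reductase counted here with xanthophore genes, had 8.13, 3.21, 4.98, 6.92 and 6.53 CPM in 3-year skin, against 15.8, 13.4, 12.5, 15.2 and 17.1 CPM in 1-year skin (log2 fold change -1.31, SE 0.25, adjusted p 0.0209). The more abundant AKR1B1 paralog ENSDARG00000045598 had means of 362 CPM in 3-year and 357 CPM in 1-year skin (log2 fold change 0.02, adjusted p 0.964). No other xanthophore gene was called by edgeR. The groups did not overlap in aox5 (-0.71, adjusted p 0.107) and MTAP (-0.26, adjusted p 0.174). For aox5, limma voom gave an adjusted p of 0.036 and DESeq2 0.0379. Apart from that paralog, only aox6, XDH, bco1l and PAX7 (ENSDARG00000070818) were positive in this list. Melanophore and iridophore lists of 19 and 23 genes had no call. Melanophore genes had no member and iridophore genes 5 at an unadjusted p below 0.05, and DESeq2 and limma voom each called 2 iridophore genes and no melanophore gene.

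A trio of retinoid genes was chosen after the values were seen. DHRS3 (ENSDARG00000044982), which reduces retinal to retinol, had 6.90, 13.8, 10.9, 10.9 and 12.95 CPM in 3-year skin, against 5.34, 4.66, 4.93, 4.47 and 4.60 CPM in 1-year skin (log2 fold change 1.20, SE 0.22, adjusted p 0.0155). CYP26B1, which breaks down retinoic acid, rose by 0.45 (SE 0.10, adjusted p 0.0383). CYP27C1, which makes the vitamin A2 form of retinol in zebrafish, fell by 1.07 (SE 0.24, adjusted p 0.0387). The groups did not overlap in any of the 3, and each had the same direction in exercised fish.

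Plasma protein genes typical of liver were higher in 3-year skin but not called. Of 46 hepatocyte genes, 38 were positive and 14 were higher at an unadjusted p below 0.05, against 8.81% of all genes. The median was 1.27, and none passed in edgeR, DESeq2 or limma voom. The score of this list was 1.98 to 4.24 in 3-year skin and 1.77 to 2.27 in 1-year skin, and 3-year replicate 4 alone held the top value. Without that library the median was 0.36. apoa1b, an apolipoprotein of plasma, had 139, 116, 59.2, 355 and 73.1 CPM in 3-year skin, against 42.4, 39.0, 42.4, 83.4 and 36.6 CPM in 1-year skin (log2 fold change 1.60, SE 0.58, adjusted p 0.17). Complement and coagulation genes, many of them liver products, went with it: 57 of 62 were positive, the median was 1.08, and cfp was the 1 call. With the hepatocyte score as a covariate the complement median was 0.12, while cfp kept an adjusted p of 0.00194. The defining markers fabp10a, apoa2 and tfa were present in every library. With the hepatocyte covariate 91 genes were called, 89 of them among the 201, and 37 of the 66 named genes kept their call while 29 lost it. Of the 12 clock genes, bmal2 (adjusted p 0.0508) and rorcb (0.0766) were lost and the other 10 were kept.

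**Figure D4:**
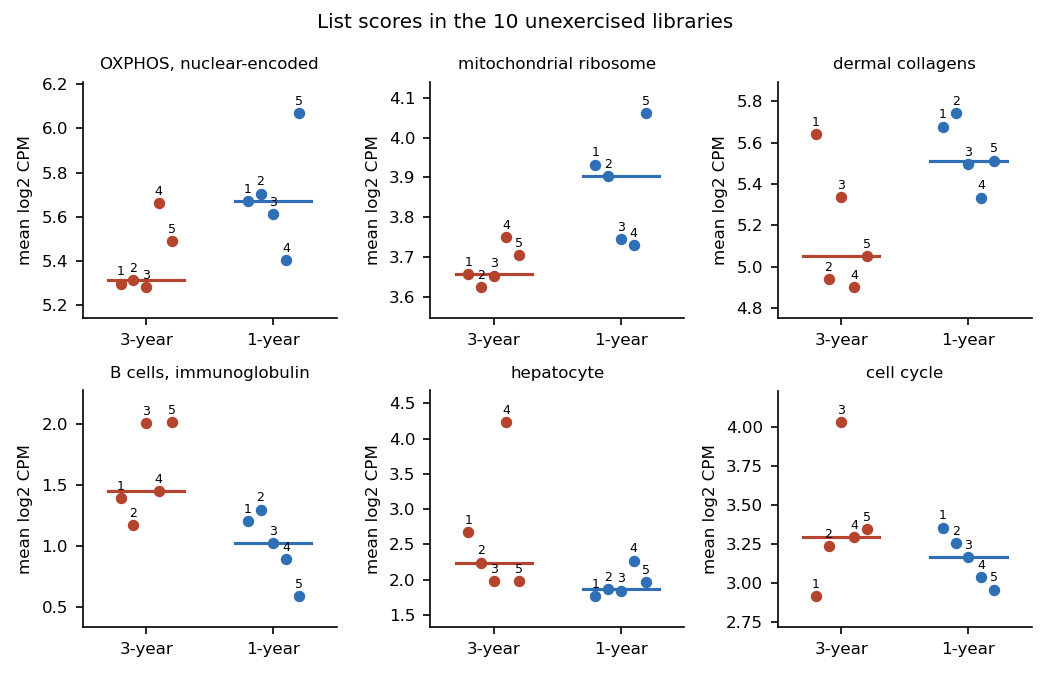
Score of 6 gene lists, the mean log2 CPM of their members, in the 10 unexercised libraries (vertical axes, which differ between panels). Points are libraries labelled by replicate, 3-year left and 1-year right, and lines are medians. Hepatocyte genes peak in 3-year replicate 4 at 4.24, cell cycle genes in 3-year replicate 3 at 4.03, and no list separates the ages completely.

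The age difference was then set beside that of exercised fish, which shares no library with it. In exercised fish 3566 genes were called for age (17.2% of those tested), 2022 of them higher (9.73%) and 1544 lower (7.43%). Of the 201 genes called in unexercised fish, 103 were called in the same direction in exercised fish, which is 51.2% of the 201 and 2.89% of the 3566. A single gene was called in the opposite direction, and 188 of the 201 had the same sign. A larger count in exercised fish does not show a larger effect, so the difference of the 2 age effects was tested for each gene. It was called in 1 gene (0.00481%), and 2783 genes (13.4%) had an unadjusted p below 0.05, among them 63 of the 201. limma voom called 2 genes for the difference and DESeq2 498.

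The gene with a called difference was ENSDARG00000104886, which has no symbol. It had 1.71, 1.64, 1.8, 1.59 and 1.88 CPM in unexercised 3-year skin, against 4.06, 4.66, 3.06, 4.02 and 2.89 CPM in unexercised 1-year skin. In exercised fish it had 1.87, 2.36, 3.12, 3.25 and 2.61 CPM at 3 years, against 1.73, 1.96, 1.71, 1.09 and 1.71 CPM at 1 year. It was thus lower with age without exercise (log2 fold change -1.11, adjusted p 0.00956) and higher with age in exercised fish (0.69, adjusted p 0.0194). The difference of the effects was -1.80 (adjusted p 0.0383). The next 4 genes by p for the difference were FNDC3B (ENSDARG00000062023), dicp1.17, TTC6 and kdm6bb, with adjusted p of 0.0617 to 0.101.

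None of the 45 clock genes was called for the difference, and 14 of them had an unadjusted p below 0.05 for it, against 13.4% of all genes. NR1D1 stood at -2.58 without and -2.62 with exercise (unadjusted p of the difference 0.944), and CRY2 at -1.14 and -1.03 (0.566). PER1 (ENSDARG00000012499) stood at -1.29 and -1.79 (0.0485), bmal2 at 0.91 and 1.56 (0.0216) and rorcb at 1.58 and 3.02 (0.0118). The smallest p in the clock lists was that of cry5, at -0.57 without exercise and -2.14 with it (unadjusted p 5.34e-05, adjusted p 0.101). Next came cry-dash, at -0.45 and -1.55 (unadjusted p 0.000125, adjusted p 0.101). Hepatocyte genes had a median of 1.27 without exercise and -2.22 with exercise, where 27 of 46 were called lower. In 34 of them the difference had an unadjusted p below 0.05, and the score was 1.35 to 3.29 in exercised 3-year and 2.37 to 5.52 in exercised 1-year libraries. Cell cycle genes had medians of 0.25 and 1.20, with 46 called higher in exercised fish, and 29 of 74 had an unadjusted p below 0.05 for the difference.

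**Figure D5:**
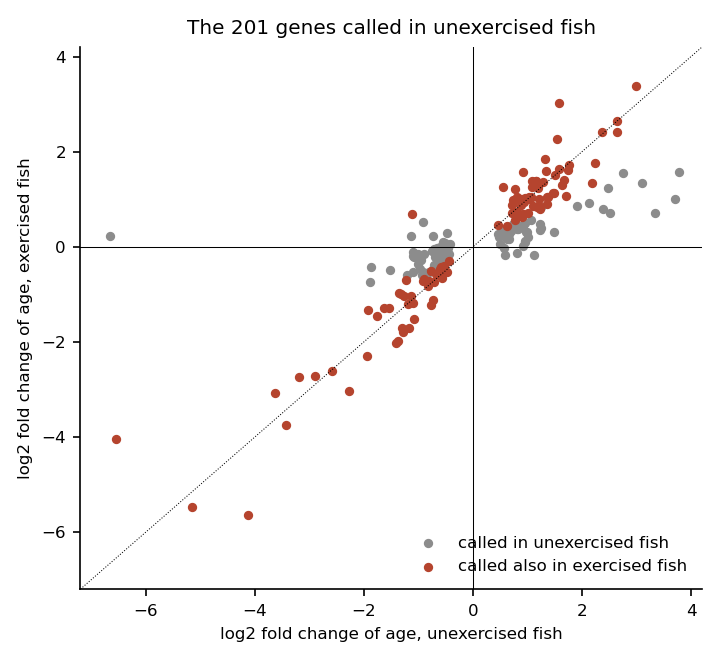
Log2 fold change of age in unexercised fish (horizontal axis) and in exercised fish (vertical axis) for the 201 genes called in unexercised fish. Points are genes, red where the gene was also called in exercised fish, and the dotted line marks equal values. Of the 201, 188 lie in the quadrants of equal sign; the choice of genes used the horizontal axis only.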

How the data were processed

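RNA-seq libraries were made with a TruSeq RNA v2 kit, which does not mark strand, per the labels' protocols, so reads of a gene and its antisense partner are mixed. Per the submitters' processing notes, bcl2fastq 1.8.4, STAR 2.4.1d, featureCounts 1.4.6-p4 and the build GRCz10 were used; the annotation is not given in the sources used here. The values used are the deposited raw counts per gene. The deposited RPKM were not used. Symbols came from a separate name table (26269 of 32105 genes), and the ID is printed where a symbol names several genes.

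All 20 libraries entered 1 edgeR 4.0.16 model (R 4.3.3) of 4 group means with TMM scaling and filterByExpr. Quasi-likelihood F-tests (robust) had 16 residual degrees of freedom, and called genes have a p under 0.05 after Benjamini-Hochberg adjustment. The biological coefficient of variation was 34.7% (37.3% in unexercised 3-year and 30.1% in unexercised 1-year libraries). Replicates are numbered in accession order and pair nothing. The counts of every pair of libraries in a group differed by more than sampling noise. Alternatives were other scalings and filters, DESeq2 1.42.0, limma voom (limma 3.58.1), the compared groups alone, muscle and hepatocyte covariates, and each library left out. Total counts, the shares of the 100 most abundant and of mitochondrially encoded genes, and genes detected were compared by exact permutation over 252 assignments; the lowest adjusted p was 0.0952.

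The 60 gene lists, the rule for named genes and the members were chosen with earlier results of these data known. The rule took the 12 highest and 12 lowest called genes with a symbol and at least 5 CPM, up to 4 called members per list or the one of lowest p, and the 5 lowest p for the difference. The text prints a selection. On simulated counts for age without exercise over 20788 genes, edgeR found 64% of 2-fold and 86% of 4-fold changes and called 2 unchanged genes. limma voom found 63% and 84% and called 4 unchanged genes. DESeq2 found 72% and 93% but called 43 unchanged genes, so its larger counts need more care. The changed genes were drawn only from those above a minimum mean count, so these shares do not cover the weakest genes.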

Additional observations from a re-analysis of the deposited data

Results flagged for a closer look

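Within a group of 5, the gap of 1 library to its nearest neighbour was divided by the range of the group. This ratio exceeded the 95% critical value of Dixon's test (0.71) in 17 of 260 groups examined. Chance gives about 1 in 20. Values were taken on a log2 scale. In 3-year skin, mhc1uba was 4320 CPM in replicate 4, against 33.0 to 98.6 CPM in the others. EFEMP2 (ENSDARG00000020811) was 10.5 CPM in replicate 1, against 22.6 to 26.3. TOMM40 was 40.1 CPM in replicate 3, against 45.1 to 46.7. TSFM was 8.92 CPM in replicate 4, against 5.08 to 5.78. IARS2 was 27.0 CPM in replicate 5, against 28.0 to 28.4.

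In 1-year skin, si:ch211-114l13.11 was 0.0519 CPM in replicate 3, against 6.73 to 8.80 CPM, and col1a1a was 1143 CPM in the same library, against 1919 to 2033. PCDH12 was 4.39 CPM there, against 2.66 to 3.05. ms4a17a.7 was 7.37 CPM in replicate 1, against 4.51 to 5.00. si:dkey-21e2.10 was 3.37 CPM in replicate 5, against 6.62 to 8.37. zgc:152948 was 2.01 CPM in replicate 2, against 2.62 to 2.75. apoa1b was 83.4 CPM in replicate 4, against 36.6 to 42.4.

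Among list scores (mean log2 CPM), scale osteoblast genes were 3.38 in 3-year replicate 1, against 2.61 to 2.70 in the other 3-year libraries. DNA repair genes were 3.68 in 3-year replicate 3, against 3.30 to 3.40, and antioxidant enzymes 4.74 in 3-year replicate 4, against 4.43 to 4.52. In 1-year skin, macrophage genes were 4.26 in replicate 5, against 4.73 to 4.86, and cytosolic ribosomal proteins 9.44 in replicate 1, against 9.51 to 9.54.

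The age effect on ENSDARG00000104886 differed between unexercised and exercised fish by -1.80 on the log2 scale (adjusted p 0.0383), the test of the difference itself.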

How the results depend on the processing

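No paired analysis was possible because the labels give the fish no shared replicate numbers. None of the 201 called genes was counted as reversed in any setting tried, but the number called changed. A gene dropped by the filter of a setting has no direction there. Genes called for age without exercise (201; 103 higher, 98 lower) numbered 842 in DESeq2 (416 higher, 426 lower), 929 in limma voom (426 higher, 503 lower), 129 with the compared groups alone (57 higher) and 91 with the hepatocyte covariate (46 higher, 45 lower). RLE and upper-quartile scaling, both filters and the muscle covariate gave 165 to 279. Leaving out 1 library gave 43 to 393 calls, 21 to 197 higher and 21 to 196 lower. In 1-year skin the count was 67, 43, 299, 99 and 48 without replicates 1 to 5; in 3-year skin it was 393, 87, 57, 95 and 60 without replicates 1 to 5. The set without both replicates numbered 1 was chosen after seeing the data. The cause was not tested. Depth was at least 31272180 counts per library, and genes near 1 CPM or below are measured least precisely.

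Age with exercise (3566 called) gave 1673 with the compared groups alone, 1639 with the hepatocyte covariate and 2174 to 4148 leaving out 1 library, the lowest counts being 2174 and 2259 without exercised 1-year replicates 2 and 4. The difference of the age effects (1 called) gave 2 with RLE scaling, upper-quartile scaling, the stricter filter, limma voom and the muscle covariate. It gave 0 without the filter, with the hepatocyte covariate and without both replicates numbered 1, and 498 in DESeq2. Leaving out 1 library gave 0 to 39, with 39 and 28 without exercised 3-year and exercised 1-year replicate 5.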
